A study of Homo sapiens with 6 samples.

Results

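Non-glycolytic target genes of the hypoxia-inducible factors (HIF) were followed in K562 cells, a human leukemia line that carries the Bcr-Abl fusion. The members were VEGFA, ADM, EGLN1, EGLN3, P4HA1, KDM3A, BNIP3, PDK1, NDRG1 and ANKRD37. These genes were chosen from measured values: in earlier results on the same libraries, a list of hypoxia genes had stood out as higher after the knockdown. The difference between the groups is therefore given for them as a description, without a test. All 10 named genes were among the 12486 genes of the expression table, and each passed the filter of a mean of at least 0.1 FPKM (fragments normalised for transcript length and library size). The cells stably expressed either a control shRNA (sh-luc) or an shRNA against lncRNA-IUR1, which the sample labels call lncRNA-up91 (sh-IUR1). RNA-seq was performed on 3 libraries of each group, and the methods describe the cells as 3 independent groups. One library of each group carries no replicate number, and the others are called r1 and r2. The level of lncRNA-IUR1 itself was not analysed here, and the knockdown was not checked here in these libraries. The paper describes an RT-PCR of lncRNA-IUR1 in K562 cells with either shRNA.

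HIF is a transcription factor made of an oxygen-sensitive alpha subunit, HIF1A or EPAS1 (HIF-2 alpha), and the stable partner ARNT. When oxygen is present, the prolyl hydroxylases EGLN1, EGLN2 and EGLN3 modify the alpha subunit, VHL then recruits a ubiquitin ligase, and the subunit is degraded. Stabilised HIF binds a short core motif and activates genes of glycolysis, and also genes of blood vessel growth, mitochondrial turnover, collagen modification and chromatin, as well as its own hydroxylases.

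K562 cells have erythroid features, and the erythroid markers were abundant in all 6 libraries. GATA1 was between 182.31 and 200.42 FPKM. The gamma-globin gene HBG2 was at 3070 ± 453 FPKM in sh-luc and 2759 ± 187 FPKM in sh-IUR1 (SD, n = 3 each), HBG1 at 1358 ± 222 and 1184 ± 97.8 FPKM, HBA1 at 1286 ± 39.8 and 1309 ± 80.1 FPKM, and HBZ at 711 ± 65.4 and 710 ± 48.4 FPKM. HBG1 and HBG2, like HBA1 and HBA2, are near-identical copies, so the split between them is uncertain. Of the 11 erythroid markers 10 had a difference, sh-IUR1 minus sh-luc, below 0, with a median difference of -0.073 in log2(FPKM + 1), and -0.033 without the unnumbered sh-luc library, where 3 of the 11 were above 0. With all libraries, 1 gene of the list, HBE1, was lower in all sh-IUR1 libraries than in all sh-luc libraries, as were 3.03% of all genes fitted. It was at 179 ± 8.85 FPKM in sh-luc and 166 ± 3.49 FPKM in sh-IUR1 (SD, n = 3 each) and is named after its values were seen, and 0 of the 11 passed the adjusted threshold of limma. Of the 10 markers of other cells, 6 were listed. T-cell marker CD3E was at most 0.18 FPKM, CD3D at most 4.96 FPKM and the fibroblast marker COL1A1 at most 0.37 FPKM. The epithelial genes KRT18 and EPCAM were higher, at up to 304.97 and 47.60 FPKM, with similar values in both groups. Over the 5 markers of other cells that were fitted, the median difference was -0.047, with 1 gene above 0. Without the unnumbered sh-luc library it was -0.0024, with 2 genes above 0.

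One control library stood apart. On the first principal component of log2(FPKM + 1), which held 59.3% of the variance, the unnumbered sh-luc library had a score of -19.8, and the other libraries lay between -3.75 and 13. Genes of the integrated stress response, which cells switch on under amino acid shortage and other stresses, were also low there. Of the 12276 genes fitted, 4715 were at their lowest in the unnumbered sh-luc library, and so were all 21 genes of this list. Their summed level was 1329 FPKM in that library, 2259 in r1 and 2074 in r2 of sh-luc, against 2314 in the unnumbered library, 2581 in r1 and 1901 in r2 of sh-IUR1. ATF4, the most abundant gene of the list, was at 252.24 FPKM in the unnumbered sh-luc library and between 279.58 and 297.50 FPKM in the others. SLC3A2 ranged from 188.28 FPKM in that library to 303.93 FPKM in r1 of sh-IUR1, ASNS from 175.98 to 307.97 FPKM and SLC7A5 from 88.62 to 238.99 FPKM in the same libraries. The median difference of the list, sh-IUR1 minus sh-luc in log2(FPKM + 1), was 0.36 with all libraries and 0.055 without this one, with 21 and 20 of the 21 genes above 0. The erythroid markers moved the other way, with 8 of 11 at their highest in this library, beside 2962 of the 12276 genes fitted. The differences of the members and the medians of the lists are therefore given with and without the unnumbered sh-luc library.

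Limma was fitted to log2(FPKM + 1) of 12276 genes, and 0 of them (0%) had an adjusted p under 0.05. At an unadjusted p under 0.05 there were 325 genes, 203 of them higher in sh-IUR1, which is 1.65% of the genes fitted. The groups did not overlap, with all sh-IUR1 values above all sh-luc values, for 496 genes (4.04%), and the reverse was true of 372 genes (3.03%). NDRG1 and EGLN3 were the 2 members whose libraries did not overlap between the groups, both higher in sh-IUR1, and 0 members were lower without overlap. Without the unnumbered sh-luc library, limma gave 0 genes with an adjusted p under 0.05, 143 genes were higher at an unadjusted p under 0.05, 789 genes (6.43%) were higher without overlap, and NDRG1 and EGLN3 were again the members among them. Nothing is read from these counts, since the members were chosen from this contrast, and no p-value is given for any member. P-values here measure only the spread between these libraries, part of which may be technical. In bulk RNA, fewer cells that express a gene and less of its RNA per cell cannot be told apart. On the scale of log2(FPKM + 1), differences of genes at low levels come out too small.

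The promoters of the members were read for the core motif to which HIF binds. RefSeq windows of 300 bases on GRCh38.p14, from 250 bases before to 50 bases after the start site, matched 8 of the 10 genes, with 10 windows in all because KDM3A and PDK1 have 2 each. VEGFA and NDRG1 had no window in the set used and were not searched. The letters searched were ACGTG and GCGTG on either strand. ACGTG on both strands overlaps in CACGTG, which was counted as 1 match. At least 1 match was present in 8 of the 10 windows, which belong to 7 of the 8 genes. Of all 35116 promoter windows of this length 48.4% held a match, and of the 14345 windows of genes in the fit 60.9% did. ACGTG was in 5 of the 10 windows, in 21.4% of all windows and in 25.7% of those of genes in the fit. GCGTG was in 4 of the 10 windows, in 36.5% of all windows and in 48.7% of those of genes in the fit. BNIP3 had both, and the overlapping windows of KDM3A share the same GCGTG. The windows printed here come from the 8 genes searched. They contrast BNIP3, with the most matches, ANKRD37, with ACGTG in 2 places, P4HA1, with 1, and EGLN3, the only searched gene without a match. They lie at chr10:131981874-131982173 (minus strand), chr4:185396591-185396890 (plus strand), chr10:73096817-73097116 (minus strand) and chr14:33951025-33951324 (minus strand), each written 5′ to 3′ on the strand of the gene with the matches in capitals.
BNIP3: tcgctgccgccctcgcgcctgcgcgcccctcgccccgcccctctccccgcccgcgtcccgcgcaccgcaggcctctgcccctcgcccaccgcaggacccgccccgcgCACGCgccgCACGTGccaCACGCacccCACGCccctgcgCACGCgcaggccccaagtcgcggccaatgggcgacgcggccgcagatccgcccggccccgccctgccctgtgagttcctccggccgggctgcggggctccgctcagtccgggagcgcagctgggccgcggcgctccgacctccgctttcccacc
ANKRD37: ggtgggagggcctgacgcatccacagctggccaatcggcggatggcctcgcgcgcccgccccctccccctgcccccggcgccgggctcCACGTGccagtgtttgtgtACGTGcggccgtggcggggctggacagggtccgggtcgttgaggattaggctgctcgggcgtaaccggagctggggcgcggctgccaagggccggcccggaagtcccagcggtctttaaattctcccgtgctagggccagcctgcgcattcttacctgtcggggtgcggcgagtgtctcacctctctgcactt
P4HA1: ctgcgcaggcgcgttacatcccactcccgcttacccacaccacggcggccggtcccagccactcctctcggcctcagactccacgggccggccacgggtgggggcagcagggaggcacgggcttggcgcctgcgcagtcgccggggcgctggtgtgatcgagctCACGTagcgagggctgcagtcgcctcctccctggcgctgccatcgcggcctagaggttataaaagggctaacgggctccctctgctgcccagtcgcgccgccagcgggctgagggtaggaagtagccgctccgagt
EGLN3: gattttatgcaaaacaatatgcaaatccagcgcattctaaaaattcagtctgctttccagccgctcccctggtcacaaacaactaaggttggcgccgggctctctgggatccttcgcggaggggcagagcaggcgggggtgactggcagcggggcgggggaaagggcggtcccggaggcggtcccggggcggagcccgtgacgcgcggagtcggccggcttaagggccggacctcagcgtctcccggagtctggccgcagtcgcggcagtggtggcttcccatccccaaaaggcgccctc

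The BNIP3 window held 1 CACGTG and 4 GCGTG matches, which began at positions from -143 to -104 relative to the start site. In ANKRD37 a CACGTG began at -162 and a further ACGTG at -143, and in P4HA1 the match on the opposite strand began at -86. The EGLN3 window held neither set of letters, which says only that they are not in these 300 bases. EGLN1 had 1 ACGTG, ADM and KDM3A had 1 GCGTG each, and 1 of the PDK1 windows had 2 ACGTG. A match is a description of the sequence and not evidence of binding in K562 cells.

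**Figure D1:**
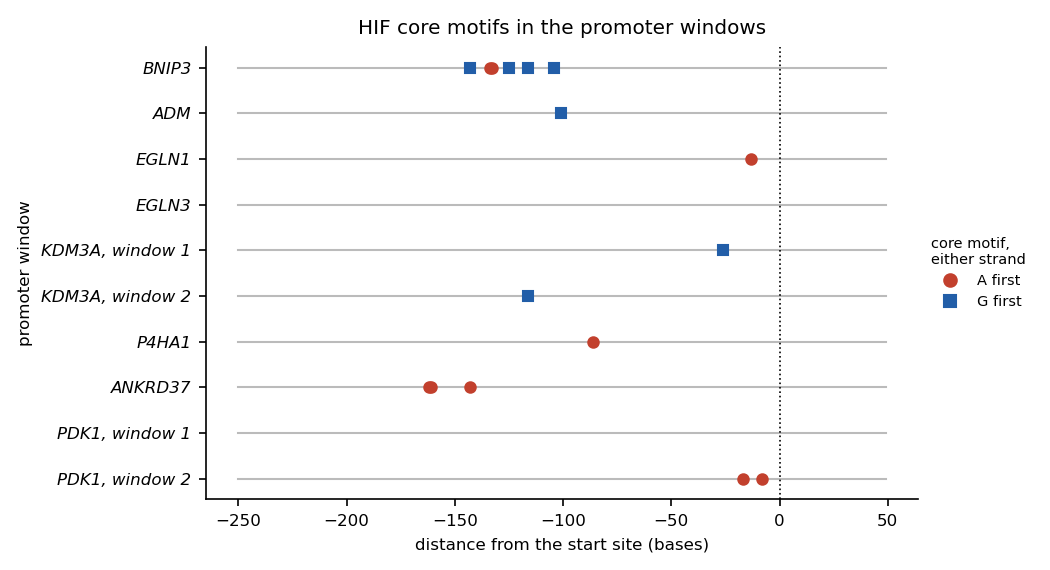
Positions of the HIF core motif in the promoter windows of 8 genes, with the distance of the first base of each match from the start site in bases on the horizontal axis and 1 line per window. Circles mark the motif with A as its first letter and squares the one with G, on either strand. EGLN3 and 1 of the 2 PDK1 windows carry no mark, and 5 matches of BNIP3 lie close together.

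Among the secreted factors, VEGFA (gene identifier 7422), the main growth factor of blood vessels, was the most abundant member. It was expressed at 47.17 (unnumbered), 78.41 (r1) and 70.08 FPKM (r2) in sh-luc and at 81.86, 86.42 and 68.95 FPKM in sh-IUR1. The unnumbered sh-luc library was far below the others, and the remaining libraries of both groups overlapped. The means were 65.2 ± 16.2 FPKM in sh-luc and 79.1 ± 9.06 FPKM in sh-IUR1 (SD, n = 3 each), a ratio of 1.21, and the difference between them was smaller than the SD of the sh-luc libraries. In log2(FPKM + 1) the difference was 0.30 (standard error 0.161), and without the unnumbered sh-luc library it was 0.09. Standard errors given for members are those of limma, which moderates the spread of each gene towards that of genes at similar levels. VEGFA and the stress list were both at their lowest in that library, and the part of the stress genes or of this library in the VEGFA difference was not tested.

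ADM (133) encodes adrenomedullin, a peptide that widens vessels, and had the lowest level of the members. It was expressed at 0.11, 0.31 and 0.22 FPKM in the sh-luc libraries (unnumbered, r1, r2) and at 0.23, 0.45 and 0.29 FPKM in those of sh-IUR1. The groups overlapped, the unnumbered sh-luc library was again the lowest, and r1 was the highest library of each group. ADM averaged 0.213 ± 0.1 FPKM in sh-luc and 0.323 ± 0.114 FPKM in sh-IUR1 (SD, n = 3 each). The log2 difference was 0.13 (standard error 0.0918), and 0.06 without the unnumbered sh-luc library. With a pseudocount of 0.1 in place of 1 it was 0.45, so the size given for this gene depends on that choice. The number of fragments behind such low values is not known.

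**Figure D2:**
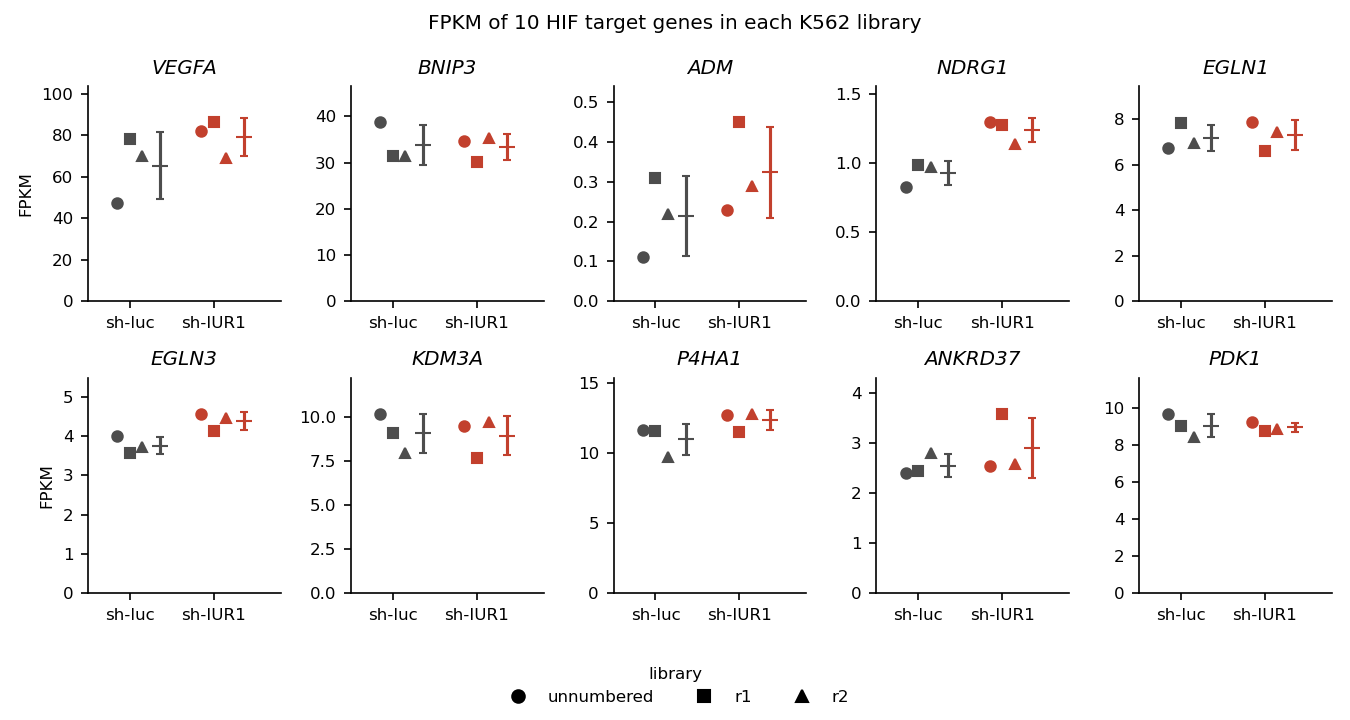
FPKM of the 10 HIF target genes in each library, with sh-luc in grey and sh-IUR1 in red. Circles, squares and triangles are the unnumbered, r1 and r2 libraries, and the bars beside them give the mean and SD of the 3 libraries. The groups are separate for NDRG1 and EGLN3 only, and the unnumbered sh-luc library is low for VEGFA (47.17 FPKM) and ADM (0.11 FPKM).

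The members also include hydroxylases of HIF. EGLN3 (112399), a prolyl hydroxylase that acts on the alpha subunits and is itself strongly induced by HIF in many cells, was expressed at 4.0, 3.56 and 3.72 FPKM in sh-luc and at 4.57, 4.12 and 4.47 FPKM in sh-IUR1. All sh-IUR1 libraries were above all sh-luc libraries, although only a small gap separated r1 of sh-IUR1 from the unnumbered sh-luc library. The means were 3.76 ± 0.223 and 4.39 ± 0.236 FPKM (SD, n = 3 each), a ratio of 1.17, and the log2 difference was 0.18 (standard error 0.0817). It was 0.21 without the unnumbered sh-luc library. With median-ratio scaling or quantile normalization of the libraries the groups overlapped.

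EGLN1 (54583), the main HIF hydroxylase in most cells, had overlapping groups. It was at 6.71, 7.83 and 6.96 FPKM in sh-luc and at 7.87, 6.59 and 7.43 FPKM in sh-IUR1. The lowest and the highest library both belonged to sh-IUR1, so the sh-luc values lay inside the range of the other group. The log2 difference was 0.022 (standard error 0.091) and changed its sign to -0.018 without the unnumbered sh-luc library and also to -0.018 with quantile normalization. EGLN2, the third hydroxylase and not a member, was the most abundant of the family, at 56 ± 4.17 FPKM in sh-luc and 58.7 ± 2.95 FPKM in sh-IUR1 (SD, n = 3 each), with overlapping libraries.

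P4HA1 (5033) hydroxylates collagen rather than HIF, as the catalytic subunit of collagen prolyl 4-hydroxylase. The sh-luc libraries held it at 11.62, 11.57 and 9.70 FPKM and the sh-IUR1 libraries at 12.66, 11.49 and 12.78 FPKM. Library r2 of sh-luc was low, and r1 of sh-IUR1 lay just under the other sh-luc libraries, so the groups overlapped. The means of 11 ± 1.09 and 12.3 ± 0.713 FPKM (SD, n = 3 each) gave a log2 difference of 0.16 (standard error 0.0882). Without the unnumbered sh-luc library it was 0.20, and over all single libraries left out it was between 0.08 and 0.20.

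KDM3A (55818), a demethylase of histone H3 lysine residues, was the chromatin enzyme of the set. It was expressed at 10.18, 9.10 and 7.94 FPKM in sh-luc and at 9.50, 7.65 and 9.69 FPKM in sh-IUR1. The libraries were interleaved, with the highest value in sh-luc and the lowest in sh-IUR1. The log2 difference was -0.019 (standard error 0.111) with all libraries and 0.06 without the unnumbered sh-luc library.

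BNIP3 and PDK1 act on mitochondria, BNIP3 by marking them for autophagy and PDK1 by inhibiting pyruvate dehydrogenase, which keeps pyruvate out of the citric acid cycle. BNIP3 (664), second in level among the members, was at 38.81, 31.37 and 31.42 FPKM in sh-luc and at 34.67, 30.08 and 35.39 FPKM in sh-IUR1. In contrast to VEGFA, the unnumbered sh-luc library was the highest, and r1 of sh-IUR1 was the lowest. The difference was -0.017 (standard error 0.0962) on the log2 scale and 0.08 without the unnumbered sh-luc library.

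PDK1 (5163) was the member that varied least. Its level was 9.70, 9.02 and 8.44 FPKM in sh-luc and 9.24, 8.76 and 8.90 FPKM in sh-IUR1, and its highest library was 1.15 times its lowest. All sh-IUR1 values lay within the range of the sh-luc values. The log2 difference was -0.011 (standard error 0.078), and 0.035 without the unnumbered sh-luc library.

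NDRG1 (10397), a cytoplasmic protein of stress and differentiation responses, was expressed at 0.83, 0.99 and 0.97 FPKM in sh-luc and at 1.30, 1.28 and 1.14 FPKM in sh-IUR1. Each sh-IUR1 library was above each sh-luc library, and the lowest of the 6 was the unnumbered sh-luc library. The means were 0.93 ± 0.0872 and 1.24 ± 0.0872 FPKM (SD, n = 3 each), a ratio of 1.33. NDRG1 differed by 0.22 (standard error 0.078) on the log2 scale and by 0.18 without the unnumbered sh-luc library. With a pseudocount of 0.1 the difference was 0.38. The groups stayed separate under both rescalings of the libraries, but the level is low and the number of fragments behind it is not known.

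ANKRD37 (353322), a small ankyrin repeat protein whose function is less understood, was at 2.40, 2.45 and 2.81 FPKM in sh-luc and at 2.54, 3.59 and 2.59 FPKM in sh-IUR1. Library r1 of sh-IUR1 stood above all others, and the remaining libraries overlapped. The log2 difference was 0.13 (standard error 0.112), 0.10 without the unnumbered sh-luc library, and 0.0066 without r1 of sh-IUR1.

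**Figure D3:**
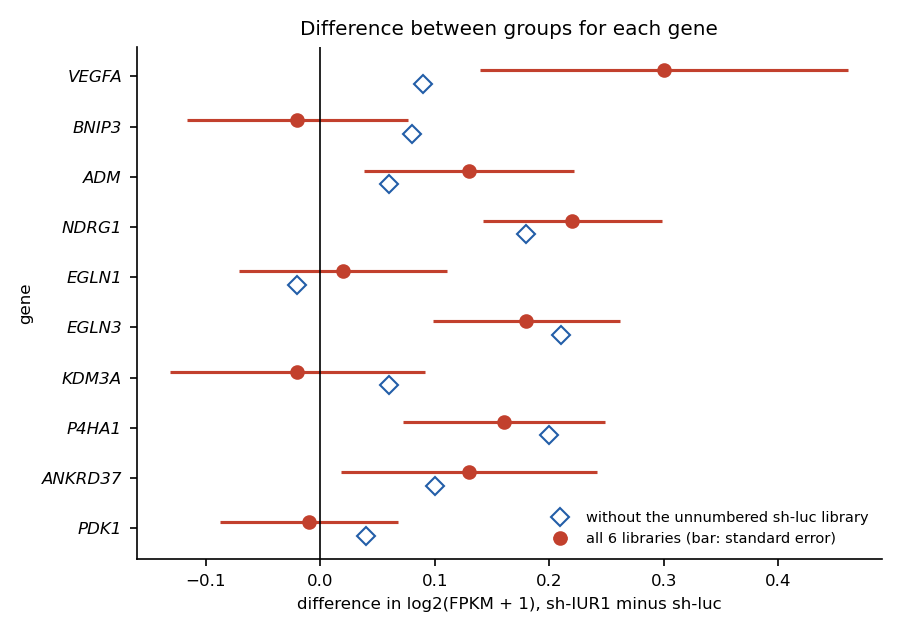
Difference in log2(FPKM + 1), sh-IUR1 minus sh-luc, for each of the 10 genes. Filled circles use all 6 libraries with the moderated standard error of limma as bars, and open diamonds leave out the unnumbered sh-luc library. VEGFA moves from 0.30 to 0.09, EGLN3 from 0.18 to 0.21 and NDRG1 from 0.22 to 0.18, and BNIP3, KDM3A, PDK1 and EGLN1 lie near 0 and change sign.

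Across the 10 members the mean level spanned a 269-fold range, from 0.268 FPKM for ADM to 72.1 FPKM for VEGFA. The order from the top was VEGFA, BNIP3 (33.6 FPKM), P4HA1 (11.6 FPKM), KDM3A and PDK1 (9.01 FPKM each), EGLN1 (7.23 FPKM), EGLN3 (4.07 FPKM), ANKRD37 (2.73 FPKM), NDRG1 (1.08 FPKM) and ADM. KDM3A and PDK1 could not be ordered within their spread between libraries. P4HA1 lay above KDM3A in each library, and the ranges of these neighbours met, since P4HA1 was at 9.70 FPKM in r2 of sh-luc and KDM3A at 10.18 FPKM in the unnumbered one. The ranges over the libraries also met between EGLN1 and KDM3A and between ANKRD37 and EGLN3, and those of P4HA1 and PDK1 touched at 9.70 FPKM.

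The difference between groups was above 0 for 7 of the 10 members and below 0 for 3, and it was above 0 for 7119 of the 12276 genes fitted (58%). Its median was 0.13, beside 0.019 over all genes fitted. Without the unnumbered sh-luc library the median was 0.08 for the members and 0.0047 for all genes. In that setting 9 of the 10 members and 52.7% of all genes were above 0. The number of members above 0 was 6 without the unnumbered sh-IUR1 library and 10 without r1 of sh-IUR1. Nothing is read from these values, since the members were chosen from this contrast.

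The levels of some members are less certain because of their neighbours and copies in the annotation (GENCODE release 44 of GRCh38). BNIP3 has 44 pseudogenes named after it, EGLN1, EGLN3, KDM3A and PDK1 have 1 each, and how reads shared with such copies were assigned is not given in the sources used here. Exons of VEGFA, P4HA1, ANKRD37 and PDK1 overlap those of a gene on the opposite strand, for example UFSP2 in the case of ANKRD37 and PDK1-AS1 in that of PDK1. Exons of NDRG1 and EGLN1 overlap those of another annotated gene on the same strand. Without strand information, reads of partners on opposite strands cannot be told apart, and strand does not separate partners on the same strand.

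The members did not follow a single pattern over the libraries. Within sh-luc, the unnumbered library was the highest of the group for BNIP3, EGLN3, KDM3A, P4HA1 and PDK1 and the lowest for VEGFA, ADM, NDRG1, EGLN1 and ANKRD37. Within sh-IUR1, r1 was the lowest library for 6 members and the highest for VEGFA, ADM and ANKRD37. After centring each gene, the mean log2 value over the members was -0.07, -0.01 and -0.08 in the sh-luc libraries and reached 0.08, 0.04 and 0.04 in those of sh-IUR1. This mean separated the groups by a narrow margin, as the choice of the members makes likely, so nothing is read from it. For the stress list the values were -0.78, 0.20 and 0.03 in the sh-luc libraries, and 0.25, 0.41 and -0.11 in those of sh-IUR1. The groups overlapped there, and this was not compared with the members, which were chosen from this contrast.

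**Figure D4:**
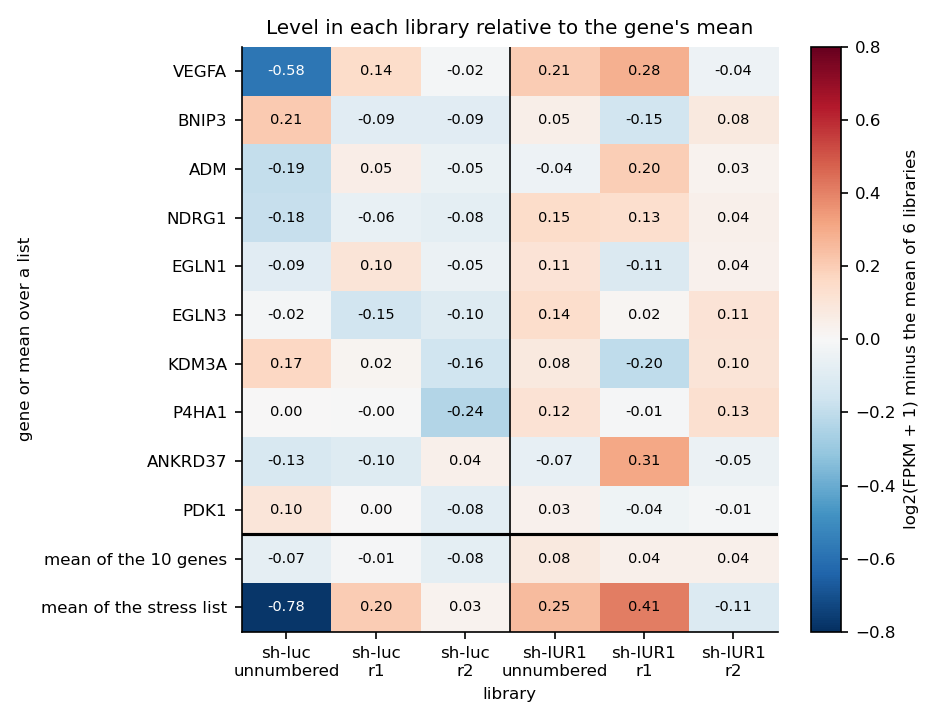
Level of each member in each library as log2(FPKM + 1) minus the mean of the gene over the 6 libraries, with the mean over the 10 genes and over the 21 stress genes in the bottom rows. Red is above and blue below the gene's own mean. VEGFA is low in the unnumbered sh-luc library, as is the stress list at -0.78, while BNIP3 and KDM3A are high there.

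The likeness of other genes to the mean of the members was measured by Pearson's r over the 6 libraries among the 10623 other genes that averaged 1 FPKM or more. Of the 5 genes with the highest values, those given here were CD70 at 0.9997, PRICKLE4 at 0.9842, LTBP3 at 0.9835 and ZNF222 at 0.9828. CD70 was at 1.77, 2.10 and 1.70 FPKM in sh-luc and at 2.62, 2.42 and 2.42 FPKM in sh-IUR1. Each of these 4 genes was higher in every sh-IUR1 library. A high r with the mean of the members, itself chosen from this contrast, makes that likely. So many genes compared over 6 libraries give high values of r easily, and these are a description only. Among the members themselves, each was set against the mean of the other 9, so that no gene entered its own mean. This r was 0.86 for NDRG1, 0.67 for P4HA1, 0.62 for EGLN3, 0.41 for ADM, 0.32 for EGLN1 and 0.25 for VEGFA, and -0.01 for ANKRD37, -0.08 for PDK1, -0.18 for KDM3A and -0.32 for BNIP3.

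The transcripts of HIF itself were then set beside its targets. Of the 3 subunit genes listed, 0 passed the adjusted threshold and 0 separated the groups. HIF1A was at 5.98, 6.30 and 6.25 FPKM in sh-luc and at 6.42, 5.63 and 6.26 FPKM in sh-IUR1, with a log2 difference of -0.02, and -0.04 without the unnumbered sh-luc library. EPAS1 was at 9.35, 13.94 and 12.20 FPKM in sh-luc and at 13.87, 15.66 and 11.79 FPKM in sh-IUR1. Like VEGFA it was lowest in the unnumbered sh-luc library, and its log2 difference of 0.21 was 0.06 without that library. ARNT was at 20.2 ± 2.24 FPKM in sh-luc and 22.4 ± 1.7 FPKM in sh-IUR1 (SD, n = 3 each), with overlapping libraries and a log2 difference of 0.14, or 0.07 without that library. The median difference of the subunit genes was 0.14 and 0.065, respectively. HIF alpha subunits are controlled mainly as proteins, which RNA-seq does not measure.

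Of the 8 genes that degrade or restrain HIF, 5 had a difference above 0 and 3 below, and 0 passed the adjusted threshold or separated the groups. The median difference of this list was 0.023 and changed its sign to -0.013 without the unnumbered sh-luc library, with 4 of 8 genes above 0. Without that library the log2 difference went from 0.01 to -0.05 for VHL, from 0.07 to -0.03 for HIF1AN, from -0.24 to -0.09 for RBX1 and from 0.07 to 0.01 for EGLN2. VHL was at 34.3 ± 2.71 FPKM in sh-luc and 34.5 ± 1.14 FPKM in sh-IUR1, and HIF1AN, which hydroxylates an asparagine of the alpha subunit, at 6.59 ± 0.946 and 6.93 ± 0.195 FPKM. ELOB, a subunit of the VHL ligase, was at 145 ± 4.13 and 139 ± 5.67 FPKM, and RBX1, its ring finger subunit, at 48.5 ± 9.23 and 40.5 ± 2.55 FPKM. CITED2, which competes with HIF for its coactivators, was at 67.4 ± 12.4 and 76.7 ± 8.22 FPKM. Its log2 difference of 0.20 was 0.04 without the unnumbered sh-luc library. For the coactivators the values were 13.1 ± 1.79 and 14 ± 0.538 FPKM for EP300 and 8.17 ± 1.83 and 9.2 ± 1.08 FPKM for CREBBP (SD, n = 3 each, throughout). Both coactivators were lowest in the unnumbered sh-luc library, and their median difference of 0.13 was -0.0099 without it.

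The median difference of the glycolytic HIF targets was 0.027 with all libraries and 0.020 without the unnumbered sh-luc library. It was not compared with that of the members, which were chosen from this contrast. Of 19 genes, 12 were above 0 and 7 below, 0 passed the adjusted threshold and 3 (15.8%) separated the groups, all higher in sh-IUR1, beside 4.04% of all genes fitted. These were HK1, PFKL and ENO2, and they are named here after their values were seen. ENO2 was at 7.03, 6.85 and 6.38 FPKM in sh-luc and at 8.06, 8.03 and 8.30 FPKM in sh-IUR1, a log2 difference of 0.24, and 0.26 without the unnumbered sh-luc library. The gaps of the others were narrow. The highest sh-luc and the lowest sh-IUR1 library were at 159.88 and 160.25 FPKM for HK1, whose difference of 0.06 was 0.02 without the unnumbered sh-luc library, and at 74.14 and 74.67 FPKM for PFKL, whose difference of 0.10 was 0.05 without it. The 4 most abundant genes differed little: GAPDH was at 2408 ± 80.3 and 2462 ± 44 FPKM, ENO1 at 1720 ± 84.9 and 1751 ± 18.3 FPKM, ALDOA at 1005 ± 56.5 and 1033 ± 17.6 FPKM, and LDHA at 673 ± 74 and 635 ± 36.5 FPKM (SD, n = 3 each). LDHA, unlike the other 3, was highest in the unnumbered sh-luc library.

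Among other non-glycolytic HIF targets, 24 of 34 genes were analysed. Their median difference was 0.066, with 15 genes above 0 and 9 below. Without the unnumbered sh-luc library it was 0.025, with 19 of the 24 above 0. None of the 24 (0) passed the adjusted threshold, and 1 gene, PLOD1, was higher without overlap, a share of 4.17% beside 4.04% of all genes fitted. PLOD1 was at 57.4 ± 2.13 FPKM in sh-luc and 61.6 ± 0.306 FPKM in sh-IUR1 (SD, n = 3 each), with a log2 difference of 0.10, and 0.07 without the unnumbered sh-luc library. DDIT4, an inhibitor of mTORC1 that responds to hypoxia and also to stress, resembled VEGFA: it was at 169.38, 599.01 and 492.28 FPKM in sh-luc and at 550.55, 620.44 and 478.89 FPKM in sh-IUR1, and its difference of 0.57 was 0.01 without the unnumbered sh-luc library. TFRC, the transferrin receptor, was instead highest in that library, at 156.05 FPKM, and FAM162A was at 54.4 ± 6.37 and 54.1 ± 1.95 FPKM.

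**Figure D5:**
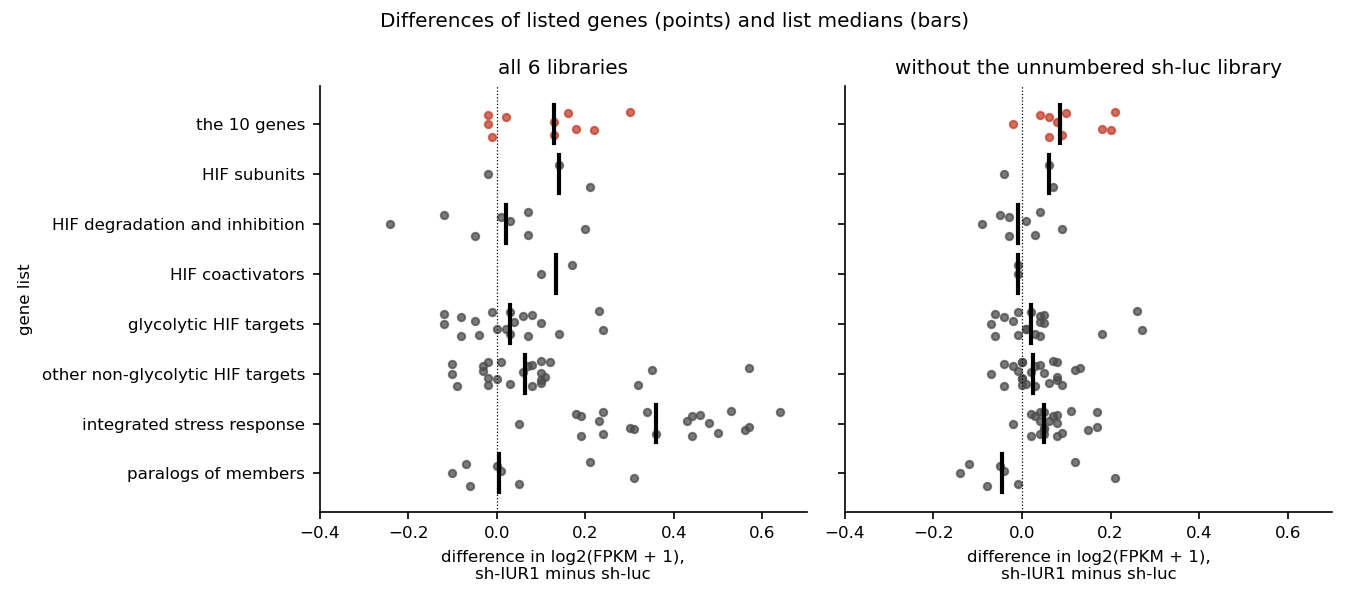
Differences in log2(FPKM + 1), sh-IUR1 minus sh-luc, for the genes of each list, with all 6 libraries on the left and without the unnumbered sh-luc library on the right. Points are genes and bars are list medians. The median of the stress list is 0.36 on the left and 0.055 on the right, and that of the 10 members is 0.13 and 0.08.

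Close relatives of the members were also measured, since they share sequence and partly function but are in general less tied to HIF. Of the 8 relatives listed, 4 had a difference above 0 and 4 below, with a median of 0.0061. Without the unnumbered sh-luc library the median was -0.045, and 2 of the 8 were above 0. VEGFB was at 40.1 ± 1.44 FPKM in sh-luc and 38.5 ± 1.9 FPKM in sh-IUR1, NDRG2 at 33.8 ± 2.23 and 31.4 ± 1.25 FPKM, NDRG3 at 28.3 ± 2.23 and 28.5 ± 1.47 FPKM, and KDM3B at 20.3 ± 1.6 and 21 ± 0.327 FPKM (SD, n = 3 each). NDRG2 and NDRG3 were thus far more abundant than the member NDRG1, whose mean was 1.08 FPKM, and their libraries overlapped between groups. JMJD1C, a relative of KDM3A, was the 1 gene of the 8 (12.5%) that was higher without overlap, beside 4.04% of all genes fitted, and is named after its values were seen. It was at 4.19 ± 0.221 FPKM in sh-luc and 5 ± 0.442 FPKM in sh-IUR1, with a log2 difference of 0.21 with and without the unnumbered sh-luc library, and 0 genes of the list passed the adjusted threshold.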

How the data were processed

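Total RNA of 6 K562 libraries was sequenced, 3 of sh-luc and 3 of sh-IUR1. The methods state adaptor trimming, masking of poor sequence and mapping to hg38 by the authors, and the submitters' processing notes name SAMtools 0.1.19. The methods name RPKM, but the table the authors deposited holds FPKM values, with 2 decimals. The authors also deposited a score (the z-score of each gene), a cluster number and a fraction (the cluster membership), and none of these was used. The aligner, the annotation and the handling of read pairs are not given in the sources used here. The lowest SD of a listed gene over the 6 libraries was 0.0501 FPKM, so genes with nearly constant or very low values are outside all counts. FPKM of the listed genes summed to between 579820 and 606240 per library, which is not a depth. Steps in low values of single-exon genes were searched for whole fragments. The best depth of each library made between 41.9% and 57.1% of 21 to 31 values whole within 0.15, so the depth is unknown and no count test was run.

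Gene identifiers were matched to RefSeq symbols (GRCh38.p14) for 12363 of 12486 genes. Values were transformed to log2(FPKM + 1), and genes averaging 0.1 FPKM or more (12276) entered the linear model of limma 3.58.1 (R 4.3.3; lmFit and trended eBayes, Benjamini-Hochberg adjustment), which had the group as its single term. The step was tested on simulated data. Other steps were run in Python 3.11.15 with numpy 2.4.6 and pandas 2.3.3, plots were drawn with matplotlib 3.10.9, and promoter windows were taken from RefSeq.

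The members and the lists were chosen with earlier results of these data known. The lists were HIF subunits, HIF degradation and inhibition, HIF coactivators, glycolytic and other non-glycolytic HIF targets, the integrated stress response, relatives of the members, and markers of K562 and of other cells. By rule, the text names all members, the 4 genes of each list with the highest mean FPKM, the regulators HIF1A, EPAS1, ARNT, VHL, EGLN2 and HIF1AN, and the 5 genes outside the members with the highest r to their mean; some genes that this rule takes are not reported here. Alternatives were each library left out, a replicate block, quantile normalization, scaling by median ratios, eBayes without a trend, a pseudocount of 0.1, and either no filter or one at a mean of 1 FPKM. The count of members without overlap was added to them after the data were seen.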

Additional observations from a re-analysis of the deposited data

How the results depend on the processing

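Under every setting tried, limma gave 0 genes with an adjusted p under 0.05, with 158 to 856 genes at an unadjusted p under 0.05. Of the latter, 203 were higher in sh-IUR1 in the text, 134 with quantile normalization, and between 98 and 598 with 1 library left out. The count was 598 without r1 and 143 without the unnumbered library of sh-luc, and 98, 127 and 475 without the unnumbered library, r1 and r2 of sh-IUR1. Genes higher without overlap numbered 496, and between 787 and 1847 with 1 library left out, where fewer libraries have to be separated. With the replicate number as a block, 355 genes were higher at an unadjusted p under 0.05 and 0 passed the adjusted threshold. Whether the numbers pair the libraries is not known. Deviations from the group means had an r of 0.04 between the unnumbered libraries, 0.39 between those called r1 and -0.34 between those called r2. Not every library correlated best with its own number, but so few libraries cannot exclude a pairing.

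The median difference of the members was between 0.082 and 0.15 with 1 library left out. Members higher without overlap numbered 2, beside 4.04% of all genes fitted. With median-ratio scaling (3.53% of all genes) or quantile normalization (2.98%) the number was 1, since EGLN3 overlapped. With 1 library left out it was 2 to 3, and the share of all genes was then also higher, between 6.41% and 15%. The filters, eBayes without a trend and the block cannot move the difference of a member (39 values). Of the 90 values under the other alternatives, 9 changed sign, 2 moved by more than 1 SD between libraries (ADM and NDRG1 with a pseudocount of 0.1) and 79 by less; the cause was not tested. That SD is wide for some genes: VEGFA went from 0.30 to 0.086 without the unnumbered sh-luc library and ANKRD37 from 0.13 to 0.0066 without r1 of sh-IUR1, both by less than 1 SD. A minimum mean of 1 FPKM removes ADM. EGLN1 was at -0.018 with quantile normalization. With 1 library left out, EGLN1 was between -0.0275 and 0.085, BNIP3 between -0.067 and 0.082, KDM3A between -0.10 and 0.079, PDK1 between -0.055 and 0.035, and VEGFA between 0.086 and 0.45. The sign changed without the unnumbered sh-luc library for BNIP3, EGLN1, KDM3A and PDK1, without the unnumbered sh-IUR1 library for EGLN1, and without r1 of sh-IUR1 for BNIP3, KDM3A and PDK1. With 3 libraries per group, an unknown depth and rounding to 2 decimals, the low levels of ADM and NDRG1 are uncertain.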
